A study of Homo sapiens with 13 samples.

Results

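Homotypic RUNX3 arrays are designed enhancer inserts that hold 1 to 5 copies of the RUNX3 binding motif and no other motif. They were found by construct name. They made up 30 of the 984 named constructs of the episomal reporter libraries: 15 with 10 bp and 15 with 5 bp between neighbouring motifs, from 5 copy numbers in each of 3 flanking sequence contexts. They carried 19416 of 314519 named barcodes in the 10 bp library and 11145 of 414895 in the 5 bp library. The same 15 designs with 5 bp spacers were also integrated into the genome, where they carried 584 of 16189 barcodes. All 15 designs passed the filters on barcode number in all 3 data sets.

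All groups were MEC1, a cell line from chronic lymphocytic leukaemia, which is a cancer of B lymphocytes, with the genotype given as WT and no treatment. In the episomal groups the cells took up the 10 bp or the 5 bp plasmid library by electroporation and were harvested 24 h later, with 2 mRNA libraries from separate transfections and 1 plasmid DNA library for each spacer. In the integrated groups, MEC1 cells carried a CRE recombinase and a landing pad with a CMV promoter and GFP between loxP and lox2272 sites, and were kept in blasticidin before transfection. GFP-negative cells were sorted after 10 to 12 days and grown for another 6 to 7 days, which gave 3 mRNA and 3 genomic DNA samples. The labels describe 3 extractions and do not say whether these came from separate cultures, so p-values there measure only the spread between these samples, which may be technical. The control for every RUNX3 array was the construct named rd of the same context, which carries none of the 8 motif names of the study. The labels do not say what rd stands for. The tables hold reporter barcodes and no endogenous transcript, so the cell line could not be checked against its marker genes.

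RUNX3 is a transcription factor of the RUNX family, which binds DNA through the Runt domain together with the partner protein CBFB. RUNX factors can activate or repress a gene, depending on the cofactors they bring, among them the TLE corepressors. The family is known for its part in blood cell development, and RUNX3 in particular for lymphocytes. Family members recognise nearly the same motif, so a reporter array does not tell which of them occupied it. In STARR-seq a candidate enhancer sits inside the transcript it drives, so an active insert raises its own share of the reporter mRNA.

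Each insert carried a random barcode of 12 bases, which is the only sequence of these molecules given in the tables. The letters of the motif, the spacers and the flanks were not analysed here. The 8 barcodes below were integrated in the genome and together held 71.7% of the RUNX3 reporter mRNA there. They are shown because they were the 8 RUNX3 barcodes with mRNA in all 3 samples. The last of them lay at or near the lowest mRNA value above 0. All bases are in capitals because the whole barcode is the identifier.
5 copies, context 2: TTCCTTCCACTG
3 copies, context 1: ATGAAGCCAAAA
1 copy, context 3: CTTCGGAGTAGG
2 copies, context 2: CATTTAGCCCGC
3 copies, context 2: TCCGAGGTTCAA
5 copies, context 3: GTGCCAGCCGCA
3 copies, context 1, second barcode: CAACGCATTGAA
4 copies, context 2: ATTAACTCTCCG

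RUNX3 arrays took a smaller share of the reporter mRNA than of the plasmid DNA in both spacer libraries. They made up 3.56% of the reads in both 10 bp mRNA libraries, against 4.77% of the 10 bp plasmid reads. With 5 bp spacers they made up 1.03% and 1.05% of the mRNA reads, against 2.51% of the plasmid reads. These shares are of all listed reads, those of barcodes without a construct name included, with no read minimum. The 6 episomal libraries held between 3850658 and 4563359 reads. The activities below use named barcodes that had 5 or more plasmid reads. This left 457 to 2042 barcodes per array with 10 bp spacers and 77 to 1124 with 5 bp spacers. Activity is the log2 ratio of a construct's share of mRNA reads to its share of plasmid reads over these barcodes, and relative activity is that value minus the activity of rd in the same context and library. Every barcode in the episomal tables had at least 1 read in each of its 3 libraries, so barcodes without mRNA are missing and the activity of weak arrays is overstated.

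With 5 bp spacers, arrays of 1 to 3 RUNX3 motifs lay near rd on average, some above and some below it. Arrays of 4 and 5 motifs lay below it in all 3 contexts. Mean relative activity over the contexts was 0.23 ± 0.04 with 1 copy, 0.01 ± 0.02 with 2 copies and -0.02 ± 0.00023 with 3 copies (log2, SD over n = 2 replicates). It was -0.85 ± 0.02 with 4 copies and -1.36 ± 0.05 with 5 copies. The contexts were averaged before this SD was taken, so it leaves out their spread. The SD over the 3 contexts was 0.35, 0.41, 0.23, 0.35 and 0.39 from 1 to 5 copies. In the fit over the constructs found in both spacer libraries, 4 of the 15 arrays were higher than rd, 8 were lower and 3 did not pass (edgeR, adjusted p under 0.05). Of all 439 constructs tested the same way, 66.1% were called higher and 25.1% lower. The median fitted log2 difference to rd was -0.25 over the RUNX3 arrays and 0.62 over all constructs tested. The count depended on whether rd set the scale. With edgeR's TMM scaling or read totals in place of rd, the fit compared an array's mRNA with its plasmid DNA and involved no rd. With TMM, 0 arrays were higher (0 also at an unadjusted p under 0.05) and 14 lower, against 40.8% and 49.2% of all constructs. With scaling on read totals, 0 were higher (again 0 at an unadjusted p under 0.05) and 15 lower, against 25.7% and 65.6% of all constructs.

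The lowest of all was the array of 5 copies in context 1. It had activities of -2.81 and -3.13 in the 2 replicates, against -1.27 and -1.23 for rd (log2). Both replicates lay below both rd values, and the fitted difference was -1.70 with a standard error of 0.12, a 3.25-fold lower activity (edgeR, adjusted p = 3.93e-40). The value rested on 219 and 154 mRNA reads and 1627 plasmid reads over 77 barcodes. Of those barcodes, 35.1% and 50.6% held the minimum of 1 mRNA read, against 18.9% and 21.4% of the barcodes of rd. The 5-copy array in context 2 had activities of -2.64 and -2.42, against -1.06 and -1.17 for rd. The 5-copy array in context 3 had -2.43 and -2.54, against -1.58 and -1.51 for rd. In both contexts the replicates of array and rd did not overlap, and the fitted differences were -1.41 ± 0.11 and -0.93 ± 0.12 (SE; edgeR, adjusted p = 2.22e-35 and 3.9e-14). Such small p-values against rd rest on a spread pooled over constructs and on rd as a fixed reference. Their size overstates the certainty that so few libraries give.

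The 4-copy arrays were lower than rd by 0.56, 1.25 and 0.76 log2 units in contexts 1, 2 and 3 with 5 bp spacers, read as fitted differences of -0.56, -1.25 and -0.76 (edgeR, adjusted p = 2.43e-08, 4.99e-32 and 3.67e-13). The drop was largest in context 2, where the 2 replicates had relative activities of -1.33 and -1.17. Among the shorter arrays the highest was the single RUNX3 motif in context 2, with activities of -0.67 and -0.55, against -1.06 and -1.17 for rd. Its replicates lay above those of rd, with a fitted difference of 0.51 ± 0.10 (SE; edgeR, adjusted p = 5.33e-07). The arrays of 1, 2 and 3 copies in context 1 were also higher than rd, by 0.35, 0.44 and 0.22 (edgeR, adjusted p = 0.000765, 1.83e-05 and 0.0459). The call on 3 copies was lost without either 5 bp mRNA replicate. All 4 of these higher calls refer to rd and not to plasmid DNA, since the mRNA to plasmid values were below 0 in the fits without rd. With TMM scaling the single motif in context 2 was at -0.07, and 1, 2 and 3 copies in context 1 were at -0.36, -0.27 and -0.49. On read totals the values were -0.61, -0.90, -0.81 and -1.03 in the same order. The mean activity of rd, also on read totals, was lower still, at -1.25 in context 1 and -1.12 in context 2. Arrays of 2 copies in context 3 and 3 copies in context 2 were lower than rd, by fitted differences of -0.38 and -0.25 (edgeR, adjusted p = 0.000194 and 0.021), the second call being lost without either 5 bp mRNA replicate. The remaining 3 arrays, with differences of -0.16, -0.02 and -0.04, did not pass.

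With 10 bp spacers, mean relative activity was highest at 2 and 3 copies and again lowest at 5. Mean relative activity over the contexts was -0.13 ± 0.03 with 1 copy, 0.37 ± 0.09 with 2, 0.51 ± 0.09 with 3, -0.35 ± 0.09 with 4 and -0.94 ± 0.08 with 5 copies (log2, SD over n = 2 replicates). The SD over the contexts was 0.59, 0.70, 0.60, 0.11 and 0.13 from 1 to 5 copies. Against rd, 5 of the 15 arrays were higher and 8 lower (edgeR, adjusted p under 0.05), while 44.9% of all 439 constructs were called higher and 44.9% lower. The median fitted difference was -0.27 over the RUNX3 arrays and -0.05 over all constructs. TMM scaling in place of rd gave 6 higher and 8 lower arrays, with 46% and 48.7% of all constructs. Read totals in place of rd gave 2 higher and 13 lower, with 31.4% and 62.2% of all constructs.

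The highest relative activity was that of 3 copies in context 3 with 10 bp spacers. This array had activities of 0.31 and 0.33, against -0.82 and -0.93 for rd, from 32229 and 32450 mRNA reads over 2042 barcodes. Its replicates lay far above those of rd, with a fitted difference of 1.20 ± 0.11 (SE; edgeR, adjusted p = 6.66e-25), a 2.29-fold higher activity. The array of 2 copies in context 1 came next, with activities of 0.32 and 0.33, against -0.62 and -0.74 for rd. Its fitted difference was 1.01 ± 0.10 (SE; edgeR, adjusted p = 2.23e-21). These 2 arrays were called higher under each scaling tried. With TMM scaling and on read totals that means more mRNA than plasmid DNA, without a comparison to rd.

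Within a copy number the levels differed between contexts. With 3 copies the arrays in contexts 1 and 2 had fitted differences of 0.26 and 0.09, of which the first passed (edgeR, adjusted p = 0.0155 and 0.421), a call that was lost without either 5 bp mRNA replicate. With 2 copies the array in context 3 was higher than rd (0.48) and the array in context 2 lower (-0.37; edgeR, adjusted p = 1.26e-06 and 0.000156). The single motif was higher in context 1 (0.43), lower in context 2 (-0.75) and did not pass in context 3 (-0.08; edgeR, adjusted p = 3.21e-05, 1.77e-14 and 0.398). On read totals, which leave rd out, the arrays of 1 and 3 copies in context 1 and of 2 copies in context 3 were at -0.25, -0.42 and -0.39. The mean activity of rd was -0.68 in context 1 and -0.87 in context 3.

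All 6 arrays of 4 or 5 copies were lower than rd with 10 bp spacers as well. The 5-copy arrays had activities of -1.78 and -1.74 in context 1, against -0.62 and -0.74 for rd. In context 2 they had -1.23 and -1.25, against -0.27 and -0.35 for rd, and in context 3 -1.69 and -1.67, against -0.82 and -0.93. No replicate of an array reached a value of its rd. The fitted differences of the 5-copy arrays were -1.08, -0.93 and -0.81 (edgeR, adjusted p = 1.63e-26, 8.31e-21 and 2.5e-16), and those of the 4-copy arrays -0.48, -0.27 and -0.31 (adjusted p = 7.06e-07, 0.00531 and 0.00156). The 4-copy array in context 2 was not lower when the sum of the 3 rd constructs set the scale, where its difference was 0.02. It did not pass with TMM scaling in place of rd.

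The numbers of listed barcodes and their plasmid reads moved with copy number. Listing also required a read in both mRNA libraries, so these numbers depend on mRNA and do not describe the plasmid pool alone. With 5 bp spacers 3139, 2643, 3768, 1221 and 374 RUNX3 barcodes were listed from 1 to 5 copies. The share of them with at least 5 plasmid reads was 58.9%, 61.9%, 64.9%, 75% and 79.9%. Kept barcodes averaged 12.5 plasmid reads with 1 copy and 19 with 5 copies. With 10 bp spacers the numbers of listed barcodes were 3204, 3405, 8455, 2474 and 1878, and kept barcodes averaged 15.6 plasmid reads with 1 copy and 17.8 with 5. The part of these differences in the fall of activity at 4 and 5 copies was not tested. Counting barcodes with at least 20 plasmid reads only left 4 or 5 copies lower than rd in both libraries.

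Most RUNX3 arrays whose activity relative to rd differed between spacers were higher with 10 bp than with 5 bp between neighbouring motifs. The difference of the fitted log2 values, 10 bp minus 5 bp, was above 0 and passed for 8 of 15 arrays and below 0 for 2 (edgeR, adjusted p under 0.05). Over all 439 constructs 16.2% were called higher and 67.4% lower at 10 bp. The median difference was 0.33 over the RUNX3 arrays and -0.76 over all constructs. TMM scaling in place of rd shifted the median over all constructs by 0.70. It gave 14 higher and 1 lower RUNX3 arrays, with 35.8% and 41.5% of all constructs called. The 3-copy array in context 3 differed most in the positive direction, with relative activities of 1.13 and 1.27 at 10 bp, against -0.0030 and -0.08 at 5 bp. The difference was 1.24 ± 0.15 (SE; edgeR, adjusted p = 1.17e-14).

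The other arrays that were higher at 10 bp were 2 copies in contexts 1 and 3 (0.57 and 0.86), 3 copies in context 2 (0.33), 4 copies in contexts 2 and 3 (0.98 and 0.45) and 5 copies in contexts 1 and 2 (0.63 and 0.48), each a log2 difference of 10 bp minus 5 bp. The call on 3 copies in context 2 was lost without either 5 bp mRNA replicate, and those on 4 copies in context 3 and 5 copies in context 2 were each lost without 1 of the 2. The array of 2 copies in context 2 was lower at 10 bp on the rd scale (-0.36) and higher with TMM scaling (0.46) or read totals (0.45), and its call on the rd scale was lost without the second 5 bp mRNA replicate, which left 1 array lower. The single motif has no neighbouring motif, so spacer length does not enter its design as the labels describe it. In contexts 1 and 3 its difference was 0.08 in both and did not pass. In context 2 it had relative activities of -0.74 and -0.75 in the 10 bp library, against 0.39 and 0.62 in the 5 bp library. That difference of -1.25 ± 0.14 (SE; edgeR, adjusted p = 2.87e-18) was the largest in size among the 15. The spacers were cloned and sequenced as separate plasmid libraries, so spacer and library cannot be told apart. Over the 15 designs the relative activities at 10 bp and at 5 bp had a Pearson's r of 0.63 and a Spearman's rho of 0.56, as a description of designs that share their contexts.

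Measured against the single motif of the same context and library, the arrays of 2 copies were all higher at 10 bp, while at 5 bp arrays with more copies were mostly lower. At 10 bp, 6 of 12 comparisons with 1 copy were higher and 4 lower (edgeR), with 23.1% and 63.7% of 91 homotypic comparisons of all motifs called. At 5 bp, 0 were higher (edgeR; 0 at an unadjusted p under 0.05 and 0 with DESeq2) and 9 were lower, with 31.9% and 40.7% of all such comparisons called. The median was 0.10 over the RUNX3 arrays at 10 bp, with -0.59 over all, and -0.67 at 5 bp, with -0.12 over all. These values do not rest on rd.

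All 3 arrays of 2 copies rose above the single motif at 10 bp, by 0.58, 0.37 and 0.57 in contexts 1, 2 and 3 (edgeR, adjusted p = 3.1e-09, 6.53e-05 and 4.68e-09). At 5 bp the same 3 designs had differences of 0.09, -0.52 and -0.22, of which the second and the third passed (adjusted p = 0.343, 5.97e-08 and 0.0295). The third difference was 0.02 over barcodes with at least 20 plasmid reads, and its call was lost without either 5 bp mRNA replicate. With 3 copies at 10 bp the arrays in contexts 2 and 3 were higher than 1 copy by 0.83 and 1.28, and the array in context 1 did not pass (-0.17). With 5 copies the differences at 10 bp were -1.50, -0.18 and -0.73, of which the first and the third passed. Those at 5 bp were -2.05, -1.92 and -0.77, and all passed. The difference to the single motif was higher at 10 bp than at 5 bp in 9 of 12 comparisons (edgeR), with 22% of all homotypic comparisons called. It was lower in 0 (0 at an unadjusted p under 0.05 and 0 with DESeq2), with 49.5% of all called. Some of the 9 were smaller falls and not gains, such as 5 copies in context 1. The change between spacings was largest in context 2, with 0.89, 1.58, 2.23 and 1.73 for 2, 3, 4 and 5 copies. These 4 values share the single motif of context 2, the array that was low at 10 bp.

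The flanking context shifted RUNX3 arrays by up to a log2 difference of -1.12, and its direction changed with copy number. At 5 bp, 7 of 8 arrays of 1 to 4 copies were lower in context 2 or 3 than in context 1, while the single motif in context 2 was higher (0.29). With 5 copies both were higher, by 0.43 and 0.47 (edgeR, adjusted p = 0.0297 and 0.00266), the first call being lost without the second 5 bp mRNA replicate. Over 292 such comparisons of all constructs 21.6% were called higher and 42.1% lower at 5 bp. At 10 bp all 4 arrays of 1 and 2 copies were lower than in context 1, with differences of -0.70 to -1.01. From 3 copies on, 4 of 6 comparisons were higher (0.20, 0.74, 0.58 and 0.52) and the other two did not pass. This made 4 higher and 4 lower at 10 bp, with 35.3% and 36.6% of all constructs called. The rd constructs also differed between contexts, with mean activities of -0.68, -0.31 and -0.87 at 10 bp and -1.25, -1.12 and -1.55 at 5 bp for contexts 1, 2 and 3.

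Set beside arrays of the same design with other blood cell motifs, RUNX3 arrays were the weaker partner of IRF arrays throughout. IRF factors act in interferon responses and lymphocyte development, PU1 is a factor of myeloid and B cells, and MEF2 factors act in muscle and in B cells. With 10 bp spacers all 15 RUNX3 arrays were lower than the matched IRF array, by a median of -1.59, and with 5 bp spacers all 15 were lower by a median of -0.81 (log2; edgeR). None was higher at either spacing, where 0 reached an unadjusted p under 0.05 and DESeq2 called 0. The gap ran from -0.63 to -2.71 at 10 bp and from -0.30 to -2.44 at 5 bp, and its largest value at each spacing was that of a 5-copy array. Over all 386 matched comparisons between motifs 45.9% were called higher and 43% lower at 10 bp, and 29.3% and 55.2% at 5 bp. These include the RUNX3 pairs, and in the other pairs the motif first in the alphabet was set against the second. Higher and lower thus depend on that order, here and in the shares of all pairs below, which are no base rate for RUNX3.

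Against PU1 arrays the spacings gave different counts. At 10 bp RUNX3 arrays were higher in 11 of 14 comparisons and lower in 2, with a median of 1.05, and at 5 bp higher in 6 and lower in 5, with a median of 0.05. The single RUNX3 motif in context 3 was lower than the single PU1 motif at both spacings (-0.90 at 10 bp and -0.79 at 5 bp), while 3 copies in context 1 were higher at both (2.20 and 1.01). The difference between the spacings itself passed in favour of 10 bp for 11 of the 14 pairs and against it for 0 (edgeR; 0 at an unadjusted p under 0.05 and 0 with DESeq2), with 52.6% and 26.4% of all pairs called. Against MEF2 arrays 9 of 15 were higher and 2 lower at 10 bp, with a median of 0.55, and 3 were higher and 4 lower at 5 bp, with a median of -0.09. Without the first 5 bp mRNA replicate 5 were higher than MEF2 at 5 bp.

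After integration into the genome most RUNX3 barcodes gave no detected reporter mRNA. Of the 584 barcodes, 30, 41 and 28 had mRNA in the 3 samples, a share of 5.65% ± 1.20 (SD, n = 3). For rd the share was 9.49% ± 3.08, and for all 16189 barcodes it was 19.6% ± 2.66. The RUNX3 share was below that of all constructs in each of the 3 samples, with 5.14%, 7.02% and 4.79% against 19.2%, 22.5% and 17.2%. Over the 3 samples together, 73 RUNX3 barcodes had mRNA at least once, 12.5% (exact Clopper-Pearson 95% interval 9.93% to 15.5%), against 19.5% of the rd barcodes (12.9% to 27.6%). The intervals of RUNX3 and rd overlap, and 8 RUNX3 barcodes were positive in all 3 samples. The PU1, MEF2 and IRF shares per sample were 26.8% ± 3.56, 10.3% ± 2.67 and 58.9% ± 6.51. The same barcodes were counted in all 3 samples, and these intervals cover counting error only.

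Over the 3 samples together, the share of RUNX3 barcodes with mRNA was smaller in longer arrays. With mRNA in any of the 3 samples it was 23.9% with 1 copy (16.2% to 33%), 14.6% with 2 (8.91% to 22.1%) and 11.9% with 3 (7.5% to 17.6%). It was 5.31% with 4 copies (1.97% to 11.2%) and 3.23% with 5 (0.393% to 11.2%). For this share the intervals of 4 and 5 copies do not reach that of 1 copy, but within single samples most overlapped. In sample 1 they were 4.49% to 16.2% with 1 copy and 0.551% to 7.56% with 4 copies. In sample 3 they were 2.05% to 11.6% and 0.215% to 6.25%. Only in sample 2 did 4 copies (0.551% to 7.56%) stay below 1 copy (8.63% to 22.7%). With 5 copies the interval was 0.393% to 11.2% in each sample and overlapped that of 1 copy in all 3. In PU1 arrays the share with mRNA in any sample also fell, with 66.7%, 50%, 41.1% and 36.4% from 1 to 4 copies and 0 of 1 barcode with 5. In MEF2 arrays it was 21.8%, 25%, 25.6% and 27.3% from 1 to 4 copies and 0 of 2 barcodes with 5. The 4-copy value of each rested on 11 barcodes. In IRF arrays it was 59.5%, 83.9%, 85.7%, 88% and 100% from 1 to 5 copies, the last from 6 barcodes. The RUNX3 array of 4 copies in context 3 was listed at 0 in all 3 samples, with 0 of 44 barcodes positive, which allows a share of up to 6.82% by a floor of 3 barcodes and 8.04% by the exact interval. The array of 5 copies in context 1, the weakest in the episomal assay, was also listed at 0, with 0 of 17 barcodes, which allows up to 17.6% by that floor and 19.5% by the exact interval. Their genomic DNA summed to 1021 ± 69.8 and 713 ± 40.1 RPM (reads scaled by the authors to a common library total; SD, n = 3), so both were present in the cells. Across the 15 designs the per-sample share and the episomal relative activity at 5 bp ranked alike, with Pearson's r of 0.68 and Spearman's rho of 0.70. That is a description over 15 designs that share motif and contexts.

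The summed reporter mRNA of RUNX3 arrays, as a ratio to genomic DNA, was 0.238 ± 0.035, against 0.656 ± 0.203 for rd (SD, n = 3). PU1, MEF2 and IRF arrays had ratios of 0.488 ± 0.030, 0.137 ± 0.030 and 2.42 ± 0.21. A single barcode held 42.9% of all RUNX3 mRNA, and a single barcode held 63.1% of that of rd. Without these barcodes the ratios were 0.137 ± 0.015 for RUNX3 and 0.246 ± 0.049 for rd. Of the 15 arrays, 9 were lower than rd of their context and 1 was higher (limma, adjusted p under 0.05), with 29.4% and 30.4% of 510 constructs called, and a median of -2.24 against -0.23 over all. Without the second mRNA sample 4 were higher. Without the rd subtraction, the fit of mRNA against genomic DNA alone gave 14 lower and 1 higher. Against the sum of the 3 rd constructs 12 were lower and 1 higher, the higher being 5 copies in context 2 in both. Without the barcode with most mRNA of each construct, a setting added after the data were seen, 6 were lower and 0 higher (limma; 0 at an unadjusted p under 0.05), with 8.2% and 30% of 500 constructs called. Those 6 were the arrays of 4 or 5 copies, but 5 of them had no mRNA left in this setting, 2 being listed at 0 throughout and 3 having a single barcode with mRNA. Their calls follow from leaving that barcode out and are no separate evidence on copy number. The remaining array, 4 copies in context 1, had a fitted difference of -1.48 (limma, adjusted p = 0.0355). The rd constructs themselves had ratios of 0.495, 1.77 and 0.0736 in contexts 1, 2 and 3, with 67.3%, 84% and 46% of their mRNA from 1 barcode each.

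The 4-copy arrays were low in every context of the integrated assay. In context 1 the array had 140, 73.8 and 57.8 RPM of mRNA over 1021, 992 and 1041 RPM of genomic DNA, against 422, 462 and 429 RPM of mRNA over 774, 839 and 1037 RPM for rd. Its ratio was 0.0888, below rd in all 3 samples, with a fitted log2 difference of -2.59 ± 0.40 (SE; limma, adjusted p = 0.00245). In context 2 the array had 0.119, 0.0819 and 0.203 RPM of mRNA, all from the barcode ATTAACTCTCCG, over 840, 1000.1 and 1094 RPM of genomic DNA. The values in samples 1 and 2 were the lowest above 0 of any barcode there. In sample 3 the lowest was 0.101 RPM. The mRNA of the context 2 array is thus close to none, and in context 3 the array was listed at 0. Both passed against rd (limma, adjusted p = 2.4e-05 for each). Their mRNA term is almost only the pseudocount, so these p-values measure the spread of rd and genomic DNA. In rd of contexts 2 and 3, 84% and 46% of the mRNA came from 1 barcode.

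The only RUNX3 array called higher than rd was the single motif in context 3, whose mRNA came mostly from 1 barcode. It had 317, 472 and 275 RPM of mRNA over 1548, 1581 and 1488 RPM of genomic DNA, against 134, 112 and 96.7 RPM of mRNA over 1622, 1580 and 1455 RPM for rd. The fitted difference was 1.62 ± 0.29 (SE; limma, adjusted p = 0.00446), and without the top barcode of each construct it was 0.70 and did not pass (adjusted p = 0.378). Without the rd subtraction its log2 value of mRNA against genomic DNA was -2.15. Its difference turned to -1.50 against the sum of the 3 rd constructs, and rd of context 3 was the weakest rd. The barcode CTTCGGAGTAGG held 75.4% of this array's mRNA, with 259, 374 and 170 RPM of mRNA over 66.5, 22 and 44.7 RPM of genomic DNA.

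The 5-copy array in context 2 had the highest ratio of the 15, at 3.26, and all of its mRNA came from TTCCTTCCACTG. That barcode had 2128, 1729 and 1515 RPM of mRNA over 137, 80.5 and 228 RPM of genomic DNA, a ratio of 12.1, while the other 14 barcodes of the array had none in any sample. In the episomal 5 bp library the same barcode was listed under the same construct with 4 and 1 mRNA reads and 1 plasmid read. With it the fitted difference of the array to rd was 0.96 and did not pass (limma, adjusted p = 0.0813), and without it the array had no mRNA. Without the second mRNA sample, and with that barcode kept, the array passed as higher. ATGAAGCCAAAA had 522, 307 and 217 RPM of mRNA over 41.8, 20.2 and 27.1 RPM of genomic DNA and held 60.9% of the mRNA of 3 copies in context 1. CATTTAGCCCGC had the highest ratio of the 8, at 17.3, with 251, 240 and 279 RPM of mRNA over 9.28, 25 and 10.4 RPM of genomic DNA. It held 63.1% of the mRNA of 2 copies in context 2, and TCCGAGGTTCAA held 76.4% of that of 3 copies in context 2. ATTAACTCTCCG, though found in all 3 samples, lay at or near the lowest value above 0 and held 0.0032% of the RUNX3 mRNA.

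By copy number the summed ratios were 0.189, 0.155, 0.192, 0.0306 and 0.870 from 1 to 5 copies. Without the top barcode of each copy number they were 0.120, 0.0861, 0.121, 0.0204 and 0.0263, so the high value at 5 copies rested on TTCCTTCCACTG. Against the single motif, 2 of 12 arrays were higher and 5 lower (limma), with 28.4% and 22.2% of 81 comparisons called. Without any 1 of the genomic DNA samples 1 was higher. Without the barcode with most mRNA of each construct 0 were higher (0 at an unadjusted p under 0.05) and 3 lower, all 3 without mRNA in that setting, with 21.8% and 15.4% of 78 comparisons called. Between contexts, 4 of 10 comparisons were higher than context 1 and 3 lower, with 13.3% and 15.5% of all called. Without the top barcodes 0 were higher (1 at an unadjusted p under 0.05) and 2 lower, both without mRNA in that setting, with 2.58% and 4.84% of all called.

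Integrated RUNX3 arrays were lower than the matched IRF array in all 13 comparisons that could be made, by a median of -3.37, and higher in 0 (limma; 0 at an unadjusted p under 0.05). Against PU1 arrays 6 of 11 were lower and 0 higher (0 at an unadjusted p under 0.05), with a median of -1.98, and against MEF2 arrays 2 of 10 were lower and 1 higher. The MEF2 counts depended on single samples, with 0 to 2 lower and 1 to 3 higher when each sample was left out, and 1 array was higher than PU1 without the third mRNA sample. Over all matched comparisons, with the same order of motifs as in the episomal pairs, 17.4% were called higher and 39.3% lower. Without the top barcodes 10 of 12 were lower than IRF, and 4 of 11 were lower and 1 higher than PU1, with 13.8% of all pairs called higher and 30.7% lower.

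Of the 584 integrated RUNX3 barcodes, 288 were listed in the episomal 5 bp table under the same construct, 49.3%, and 1 under another name. Among the 288, 16.3% had integrated mRNA in any sample (12.2% to 21.1%), against 8.81% of the 295 barcodes that the episomal table did not list (5.84% to 12.6%; exact Clopper-Pearson 95% intervals). The episomal table lists only barcodes with at least 1 read in each library, so listing itself depends on depth. In the episomal counts, the median log2 ratio of mRNA to plasmid reads was -1.19 for the 47 barcodes with integrated mRNA (quartiles -1.64 and -0.57) and -1.58 for the 241 without (quartiles -2.42 and -0.91), so the quartile ranges overlap.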

How the data were processed

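Samples were grouped by the library, spacer and material in their titles (13 samples). The members and the motif lists were chosen with earlier results of these data known. Episomal values are read counts of each barcode as the authors deposited them, with no normalization. Integrated values are RPM, which the authors deposited for every barcode of the mRNA and genomic DNA samples, beside plasmid counts that entered no test; all barcodes had at least 2 RPM in every genomic DNA sample. The aligner, the barcode counting, the motif letters and the landing pad's position were not given in the sources used here. Left out were 9 value columns that match none of the labels. Barcodes without a construct name held 16.6% to 18.5% of the episomal reads. They stayed out of the totals for activity and out of tests, but count in the RUNX3 shares of library reads.

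Named barcodes with at least 5 plasmid reads were summed per construct, with at least 5 barcodes per construct (3 for the integrated library). Counts of the 6 episomal libraries were fitted with edgeR 4.0.16 (quasi-likelihood test, 4 groups, R 4.3.3), with the log count of the comparison construct as offset. Only the 442 constructs kept in both spacer libraries entered, of 542 in the 5 bp library. Shares and medians over all constructs at 5 bp leave the others out. The plasmid DNA, 1 library per spacer, was assumed to have the spread of the mRNA. The offset has no error term of its own, and the spread was pooled over the constructs tested. The smallest p-values against rd therefore overstate certainty. Integrated values were fitted with limma 3.58.1 on differences of log2(summed RPM + 0.5), mRNA against genomic DNA. This understates the change of weak arrays, and arrays at 0 are given without a fold. P-values were adjusted by Benjamini-Hochberg over each comparison's whole table. Named were all 15 members of each table, and the integrated RUNX3 barcodes with mRNA in all 3 samples, at most 8, by summed mRNA. The fits against rd, episomal at 5 bp and integrated, were tested on simulated data. The other comparisons, the shares and the ratios were not. In the integrated simulation rd had no noise and no construct lacked mRNA, so it does not cover the sparse mRNA of the data. The alternatives were other scalings, filters and pseudocounts, DESeq2 1.42.0, a replicate block and leaving out each replicate.

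The mRNA replicates differed by more than sampling noise (chi-square per degree of freedom 2.14 at 5 bp and 2.78 at 10 bp over the RUNX3 arrays). PCR reads carry no molecular identifiers, so intervals and read numbers cover counting error only. The integrated table gives no read totals, so the depth behind its values is not stated. Its lowest mRNA values above 0 were 0.119, 0.0819 and 0.101 RPM in the 3 samples, which may be single reads.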

Additional observations from a re-analysis of the deposited data

Results flagged for a closer look

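The relative activity of 10 RUNX3 arrays differed between the 10 bp and the 5 bp library in a test of the difference itself (edgeR, adjusted p under 0.05). As 10 bp minus 5 bp on the log2 scale against rd, the differences were -1.25 and -0.36 for 1 and 2 copies in context 2. They were 0.57 for 2 copies in context 1, 0.86 for 2 copies in context 3, 0.33 and 1.24 for 3 copies in contexts 2 and 3, 0.98 and 0.45 for 4 copies in contexts 2 and 3, and 0.63 and 0.48 for 5 copies in contexts 1 and 2. Against the single motif in place of rd, 9 differences passed. They were 0.49, 0.89 and 0.78 for 2 copies in contexts 1, 2 and 3, 1.58 and 1.16 for 3 copies in contexts 2 and 3, 2.23 and 0.37 for 4 copies in contexts 2 and 3, and 0.54 and 1.73 for 5 copies in contexts 1 and 2. The call on 4 copies in context 3 was lost without either 5 bp mRNA replicate, and that on 5 copies in context 1 without the second. The groups of 2 and 3 samples are too small for a test of single outlying samples.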

How the results depend on the processing

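The choice of scale moved the counts most. TMM scaling and read totals leave rd out and compare mRNA with plasmid DNA alone. At 5 bp, 0 arrays were higher and 14 lower with TMM scaling, and 0 and 15 on read totals, in place of 4 and 8 against rd. The 4 arrays higher than rd were 1 copy in contexts 1 and 2 and 2 and 3 copies in context 1. Without rd they were at -0.36, -0.069, -0.27 and -0.49 with TMM and -0.90, -0.61, -0.81 and -1.03 on read totals. At 10 bp, read totals gave 2 higher and 13 lower in place of 5 and 8 against rd. Without rd, 1 and 3 copies in context 1, 3 copies in context 2 and 2 copies in context 3 were at -0.25, -0.42, -0.22 and -0.39. The sum of the rd constructs turned 4 copies in context 2 to 0.015 at 10 bp. For 10 bp minus 5 bp, TMM and read totals each gave 14 higher and 1 lower in place of 8 and 2, with 2 copies in context 2 at 0.46 and 0.45, and the sum of the rd constructs gave 1 lower. Barcodes with at least 20 plasmid reads gave 1 array above the single motif at 5 bp in place of 0 and turned 2 copies in context 3 to 0.020. With that filter, and with at least 20 barcodes per construct, 1 array was higher than MEF2 at 5 bp in place of 3, and the second filter gave 3 lower than PU1 in place of 5.

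In the integrated assay, leaving out each construct's top barcode gave 0 arrays higher than rd, 0 higher and 3 lower than the single motif, 0 higher than context 1, 0 higher and 0 lower than MEF2, and 1 higher than PU1. It left 5 copies in contexts 2 and 3 without mRNA, as 5 copies in context 1 was throughout. Their values then come from the pseudocount and genomic DNA and measure no fold: -7.68 against rd and -4.32 against the single motif for 5 copies in context 2, and -0.26 against context 1 for 5 copies in context 3. Without the rd subtraction 14 arrays were lower, and 1, 2 and 3 copies in context 3 turned to -2.15, -3.46 and -3.48. Against the sum of the rd constructs the same 3 turned to -1.50, -2.81 and -2.83. Against MEF2, a pseudocount of 0.1 RPM gave 0 lower, constructs with at least 1 barcode gave 3 higher and 1 lower, and those with at least 10 barcodes gave 2 higher and 1 lower. With at least 1 barcode, 1 array was higher than PU1.

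Same-numbered replicates did not deviate together (r of 0.06 in the episomal and -0.02, 0.05 and -0.03 in the integrated libraries). Noise in single samples can hide a pairing from this check, so it cannot tell whether the numbers pair the samples. With the replicate number as a block, 3 arrays were higher and 8 lower than rd at 5 bp, 1 integrated array was higher than the single motif in place of 2, and 0 were lower than MEF2 in place of 2. The block moved no other count by over 1.5 times.

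Without single replicates, the integrated counts ran from 1 to 4 higher than rd, 1 to 2 higher than the single motif, 1 to 3 higher and 0 to 2 lower than MEF2, and 0 to 1 higher than PU1. The episomal counts ran from 1 to 2 lower at 10 bp than at 5 bp and from 3 to 5 higher than MEF2 at 5 bp. The cause of these changes was not tested.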
